A study of Drosophila melanogaster with 18 samples.

Results

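The regions described here are the 7735 DNA regions listed in the authors' deposited table for S2 cells with a knockdown of hrp48, out of 17192 regions in the 3 tables of the study. All of the regions of that table were taken, and for each one the RNH- group mean was subtracted from the RNH+ group mean of the hrp48 cells. This difference, in log2 units, is called the response. A response below 0 is a fall of the signal with RNH+, and one above 0 is a rise.

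R-loops are structures in which an RNA strand pairs with one DNA strand and leaves the other unpaired. The antibody S9.6 binds RNA-DNA hybrids, and DRIP-seq sequences the DNA that it pulls down. RNase H cuts the RNA of a hybrid, so a sample digested with it is the usual control for signal that comes from hybrids. In Drosophila, hrp48 is the gene Hrb27C, whose product is an hnRNP protein that binds nascent transcripts and takes part in splicing, mRNA localization and translational control.

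The samples were 18 libraries from S2 cells, an established Drosophila melanogaster line of embryonic origin, in 9 groups of 2. The cells carried a knockdown of hrp48, a knockdown of hrp36 (another hnRNP gene, Hrb87F), or the label LacZ, a bacterial gene and here taken as the control of the knockdown. From each of these 3 cell groups came S9.6 material labelled RNH- and RNH+, read here as without and with RNase H, and 10% input, which was not used here. The hrp48 groups are thus 2 RNH- and 2 RNH+ libraries. All groups share the cell line. The labels also give a cell type worded as a primary culture of a late stage, which does not describe an established line. They do not say how the knockdown was made or how complete it was, or whether the 2 libraries of a group came from separate cultures, so a p-value here reflects only how far these libraries differed, and that spread may be technical.

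The authors' deposited table gives 1 mean per group and region, with no value of a single library, so the spread within a group is seen only through the authors' standard error. Depth per library is unknown. The base mean, the authors' normalised count averaged over libraries, had a median of 98.2 per region and ran from 19.4 to 248695. The region names begin with hrp48_Un, and regions are therefore taken to be those found in RNH- libraries of hrp48 cells, which favours falls. The hrp48 RNH- mean was never under 5.27 log2 units, while the RNH+ mean went down to 2.51. Positions are those of the dm3 build given in the files, where U and Uextra hold unplaced scaffolds, rich in repeats, and names ending in Het hold mapped heterochromatin. No annotation of that build was used, so regions carry no gene names. For the same reason no sequence is shown.

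Across the whole table the signal of hrp48 cells fell at more regions than it rose, and most of the falls were on unplaced scaffolds. Of the 7735 regions, 50.3% are referred to as called, since the authors' deposited table gave them an adjusted p under 0.05. Called lower were 3451 regions, 44.6% of all, and called higher were 442, or 5.71% of all. The median response was -0.88 (quartiles -1.24 and 0.14), and the response was below 0 at 5569 regions (72.0%). The median standard error of the shrunken log2 fold change in the authors' deposited table was 0.38. Around the threshold there was no gap: the authors' deposited table gave 303 regions an adjusted p from 0.04 to 0.05, and 240 regions one from 0.05 to 0.06. The response and the shrunken fold change had opposite signs at 19 regions, of which 0 were called.

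**Figure D1:**
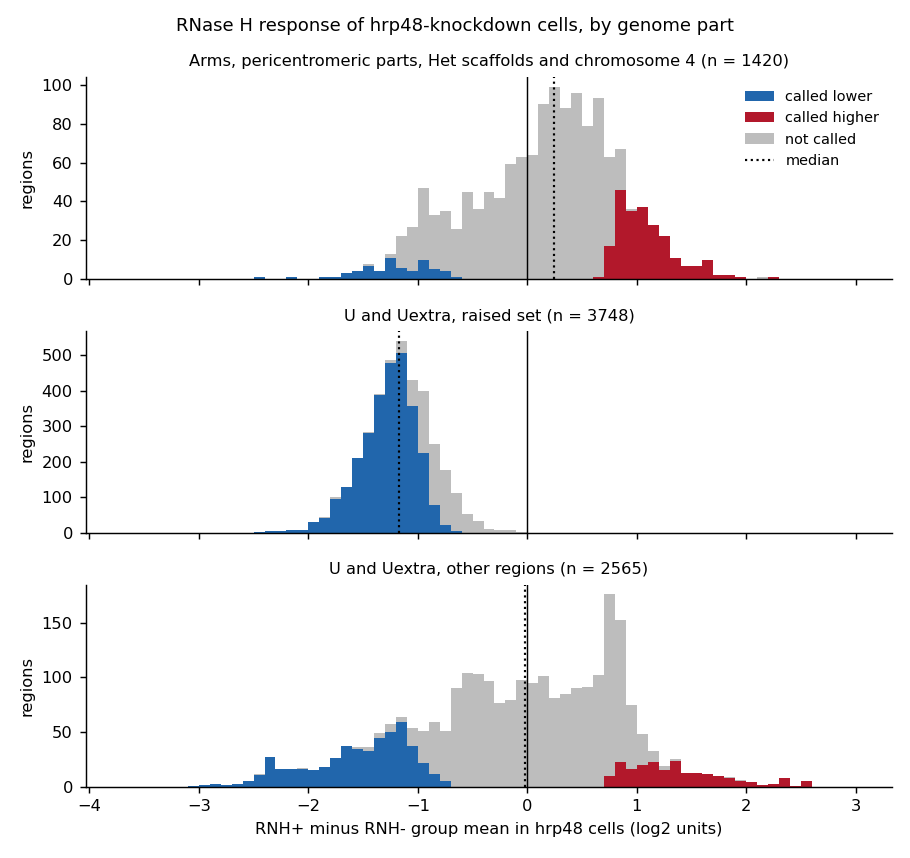
Histograms of the response (RNH+ minus RNH- group mean of hrp48 cells, log2 units) against the number of regions, for regions on placed chromosomes, for the U and Uextra regions of the raised set and for the other U and Uextra regions. Bars are stacked by call, and the dotted line is the median (0.24, -1.17 and -0.02). The raised set lies almost wholly below 0, and the other unplaced regions spread to both sides with a peak of uncalled regions between 0.7 and 0.9.

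Of the 3451 falls, 2892 belong to 1 set of unplaced regions that has to be kept apart. At 3748 of the 6313 regions of U and Uextra the RNH- mean of hrp48 cells exceeded that of LacZ cells by over 1 log2 unit, and this set is called raised. The hrp48 RNH- mean chose the set and is also subtracted in the response, so the falls in it (77.2% called lower, 0 called higher) are given as a description and nothing is read from them. The median level of the set went from 6.87 with RNH- to 5.70 with RNH+ in hrp48 cells, from 4.59 to 6.06 in LacZ cells and from 5.50 to 5.97 in hrp36 cells. Outside the set 3987 regions remained, with a median response of 0.11 (quartiles -0.58 and 0.66), 559 called lower (14.0%) and 442 higher (11.1%). All rises were therefore outside the raised set.

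On the chromosome arms rises outnumbered falls. Of 1099 arm regions 175 were called higher (15.9%) and 41 lower (3.73%), and the median response was 0.26 (quartiles -0.20 and 0.63). Each of the 5 large chromosomes had a median above 0. Counting arms and pericentromeric parts together, the median response was 0.24 on 2L, 0.29 on 2R, 0.22 on 3L, 0.25 on 3R and 0.28 on X, and the share called higher ran from 12.6% (33 of 261 on 2L) to 20.2% (41 of 203 on X). Falls numbered 10 on 2L, 12 on 2R, 9 on 3L and 10 on 3R, with 2 on X. Chromosome 4, the small and largely heterochromatic autosome, had 6 listed regions, of which 1 was called higher and 0 lower. These counts depend on where 0 is set. When 0.24, the median fold change of the arms, was subtracted from every fold change (centring), the arms had 147 lower and 99 higher regions, so falls made up 59.8% of the calls, against 56 and 200 (21.9%) by the same Wald test without centring.

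Heterochromatin placed on the map showed both directions. The 81 regions in the pericentromeric parts of the large chromosomes had 12 rises, 2 falls and a median response of 0.02, and the 234 Het regions had 39 rises, 20 falls and a median of 0.14. On the Het scaffolds the falls were concentrated on 3LHet, with 13 of 83 regions. Of these 83, 13 met the border of the raised set, and 11 of the 13 were called lower, while the other 70 had 2 falls and 13 rises and a median response of 0.27. 2RHet had 5 falls and 11 rises of 67 regions, and 3RHet had 2 and 12 of 64. The 7 YHet regions had 0 calls and a median response of -0.06, 2LHet had 2 rises of 7 regions and XHet 1 of 6. With centring, Het scaffolds had 49 lower and 26 higher regions and the pericentromeric parts 20 and 10, so that the majority turned there too.

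**Figure D2:**
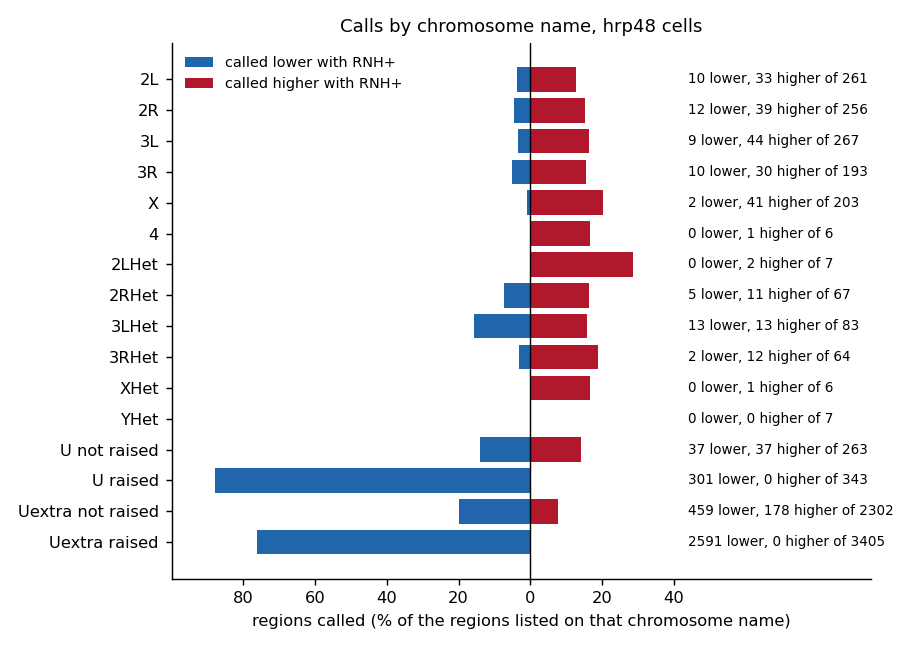
Share of regions called lower (to the left of 0) and higher (to the right) with RNH+ in hrp48 cells, in percent of the regions listed on each chromosome name, with the counts at the right. Arms and pericentromeric parts are joined, and U and Uextra are split into the raised set and the other regions. The 5 large chromosomes lie between 12.6% and 20.2% higher, and 0 regions of the raised set were called higher.

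The unplaced regions outside the raised set had both large falls and large rises. Of 2565 such regions 496 were called lower (19.3%) and 215 higher (8.38%), with a median response of -0.02 (quartiles -0.73 and 0.68). On U the calls were even, with 37 lower and 37 higher of 263 regions, and on Uextra 459 were lower and 178 higher of 2302. The quartiles lay further apart than on the arms, although the median standard error in the authors' deposited table was similar, 0.39 against 0.34. Reads of repeats fit several places, and the authors placed them by a rule not given in the sources used here, so these regions need not be independent of each other.

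Outside the raised set, falls and rises of hrp48 cells were mostly in the direction that the other 2 cell groups showed at the same regions. All 41 arm regions called lower also had a lower RNH+ than RNH- mean in LacZ and in hrp36 cells. Their median responses were -1.18 in hrp48, -1.48 in LacZ and -1.59 in hrp36 cells. Although the regions were picked for their fall in hrp48 cells, the response was more negative in LacZ cells at 30 of the 41 and in hrp36 cells at 31. Over all 1099 arm regions the median response was 0.26 in hrp48, -0.14 in LacZ and -0.17 in hrp36 cells. Among the 883 uncalled arm regions 600 were lower with RNH+ in LacZ cells, 603 in hrp36 cells and 458 in both. A lower response in the other 2 cell groups was therefore not particular to the falls. At the 496 unplaced falls outside the raised set both other groups were also lower at all 496. The medians were -1.46 in hrp48, -1.38 in LacZ and -2.30 in hrp36 cells. The border of that set had removed 2892 unplaced falls. At all 2892 the LacZ mean was higher with RNH+, and at 2766 the hrp36 mean was. The counts at the 496 thus depend on the border and are given as a description. For comparison, of the 2986 uncalled regions outside the raised set 1701 were lower in LacZ and 1979 in hrp36 cells.

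Rises were larger in hrp48 cells than in the others at most regions called for them. At the 175 arm rises the median response was 1.03 in hrp48, 0.42 in LacZ and 0.69 in hrp36 cells, and 155 of them were above 0 in both other groups. Among the 883 uncalled arm regions 138 were above 0 in both. The response of hrp48 cells exceeded that of LacZ cells at 170 of the 175 and that of hrp36 cells at 149, a direction that the choice of regions by their hrp48 rise favours. The median response over all arm regions was also higher in hrp48 cells, at 0.26 against -0.14 in LacZ and -0.17 in hrp36 cells. At the 215 unplaced rises the medians were closer, at 1.31, 1.11 and 1.09, and 204 were above 0 in both other groups. Of the 2986 uncalled regions outside the raised set, on all chromosomes, 801 were above 0 in both. The level that differed most at arm rises was the RNH- one, with a median of 6.81 in hrp48, 7.25 in LacZ and 7.04 in hrp36 cells, while the RNH+ medians were 7.91, 7.76 and 7.79. Over all arm regions the RNH- medians were 7.09 in hrp48, 7.49 in LacZ and 7.33 in hrp36 cells. The median of hrp48 minus LacZ with RNH- was -0.43 at arm rises and -0.34 at uncalled arm regions. The choice of regions by their hrp48 rise also favours a low RNH- level in hrp48 cells. Across the 1099 arm regions, which share the normalisation of the table, the response of hrp48 cells followed that of LacZ cells with Pearson's r of 0.741 and that of hrp36 cells with 0.852. Across the 2565 other unplaced regions these values were 0.912 and 0.953, where the border of the raised set had removed regions at which hrp48 and LacZ cells differ. Both are correlations across regions, which are not replicates.

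**Figure D3:**
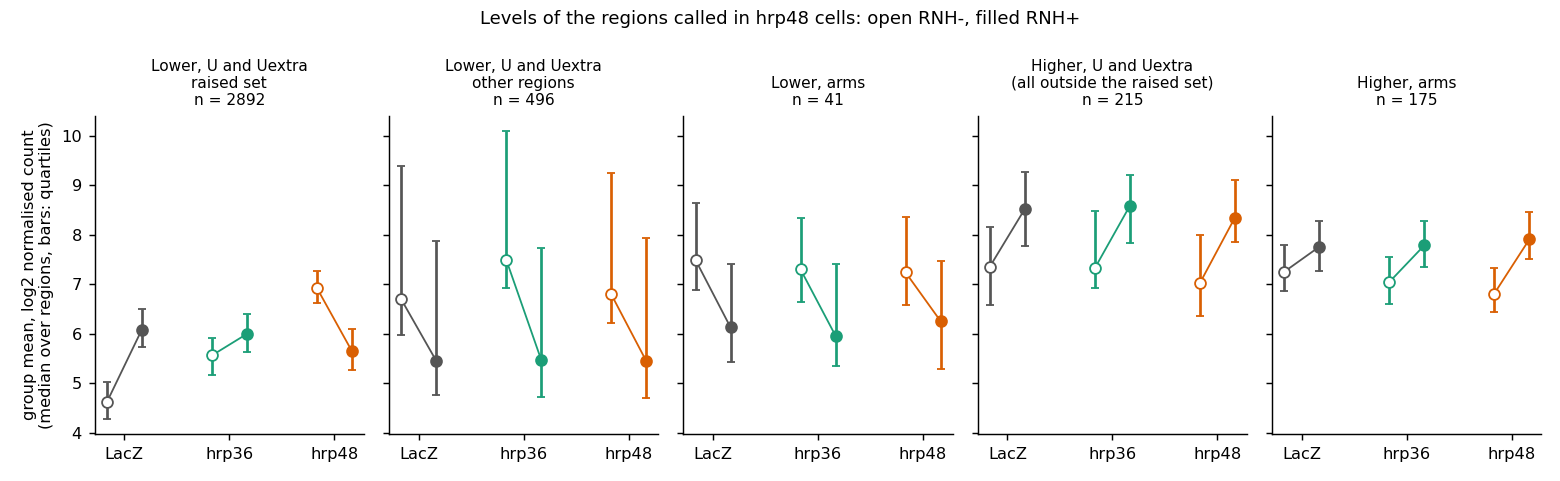
Group means (log2 normalised count, median over regions, bars from the first to the third quartile) of LacZ, hrp36 and hrp48 cells with RNH- (open) and RNH+ (filled), for 5 sets of regions called in hrp48 cells. All 3 cell groups move the same way in 4 of the sets, and the raised set differs, with a fall from 6.93 to 5.65 in hrp48 cells beside a rise from 4.62 to 6.08 in LacZ cells.

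A test of the difference between tables found no region where the response of hrp48 cells was set apart. Of 3187 regions matched between the hrp48 and LacZ tables, 0 were lower and 0 higher in hrp48 cells after Benjamini-Hochberg adjustment of the Wald test (smallest adjusted p 0.212), while at an unadjusted p under 0.05 there were 5 and 114. The median difference of the fold changes was 0.18 over all matched regions and 0.31 over the 999 matched arm regions, against a median standard error of 0.50 for 1 region. Against hrp36 cells 0 of 2363 matched regions were lower and 0 higher (Wald test, smallest adjusted p 0.0828), with 7 and 281 at an unadjusted p under 0.05 and a median difference of 0.64. With each table centred on its arm regions the unadjusted counts against LacZ became 22 and 21. Centring sets the typical arm difference near 0, so this balance is fixed by the centring. Against hrp36 cells 5 regions were then lower after adjustment, and at these 5 the hrp36 means also fell over the hrp48 borders. The raised set is not covered by these tests, since 0 of its regions matched the LacZ table and 1 the hrp36 table. A p that misses the threshold does not show that the cell groups respond alike.

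Long and short regions behaved differently, and the difference was not the same in each part of the genome. Regions ran from 178 to 14951 bases, and 4 length classes of about equal size were cut at 406, 537 and 657 bases. On the arms, rises were frequent in the 3 shorter classes (105 of 492, 31 of 156 and 26 of 92 regions) and rare in the longest (13 of 359, or 3.62%). Arm falls numbered 16, 8, 1 and 16 in the same order. The median arm response was 0.35, 0.22, 0.43 and 0.17, so the longest regions still lay above 0 on the median, with a first quartile of -0.80 against -0.06 in the shortest. On the other unplaced regions falls took 19.2%, 28.1%, 15.0% and 11.2% of the classes and rises 10.7%, 8.82%, 6.04% and 3.87%. In the raised set the share called lower went up with length, from 56.7% over 67.8% and 80.1% to 88.3%, while the median response stayed between -1.13 and -1.18 and the median standard error in the authors' deposited table went from 0.41 to 0.37. Over the whole table the 4 classes had 366, 942, 1205 and 938 falls, a pattern that mixes the raised set with the rest.

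**Figure D4:**
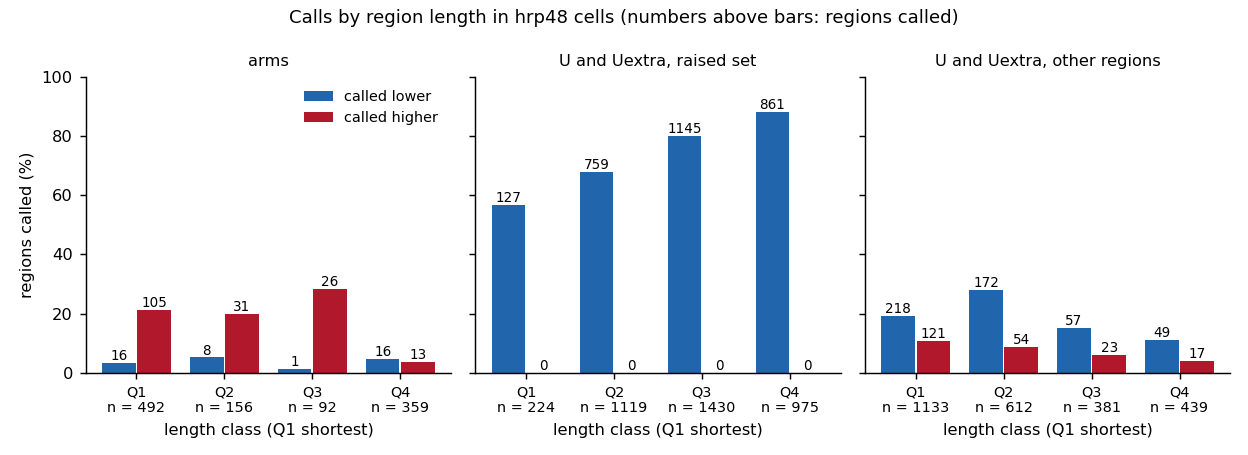
Percent of regions called lower and higher with RNH+ in hrp48 cells in 4 classes of region length cut over the whole table (Q1 shortest), for the arms, the raised set and the other unplaced regions, with the number called above each bar. Arm rises drop from 28.3% in Q3 to 3.62% in Q4, and falls in the raised set climb from 56.7% to 88.3%.

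Length and depth cannot be told apart on the arms, where Spearman's rho between length and base mean was 0.860 over 1099 regions. It was 0.768 on Het scaffolds, 0.735 in the raised set and 0.211 on the other unplaced regions, and all are correlations across regions with no test. Base mean was likewise divided into 4 classes, at 61.3, 98.2 and 302.2. Outside the raised set the lowest class had 148 falls and 0 rises among 200 regions, the next 128 and 13 of 446, the third 86 and 271 of 1422, and the deepest 197 and 158 of 1919. The base mean includes the hrp48 libraries, and a region of low base mean is listed only if its RNH- mean is high enough, which favours falls there. Classes of the mean level of LacZ and hrp36 cells, which hold no hrp48 value and were chosen after the data were seen, gave arm rises of 22, 62, 79 and 12 among about equal numbers of regions (274 or 275). Falls were 22, 6, 8 and 5. Rises on the arms were thus most frequent at middle levels by this measure too.

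**Figure D5:**
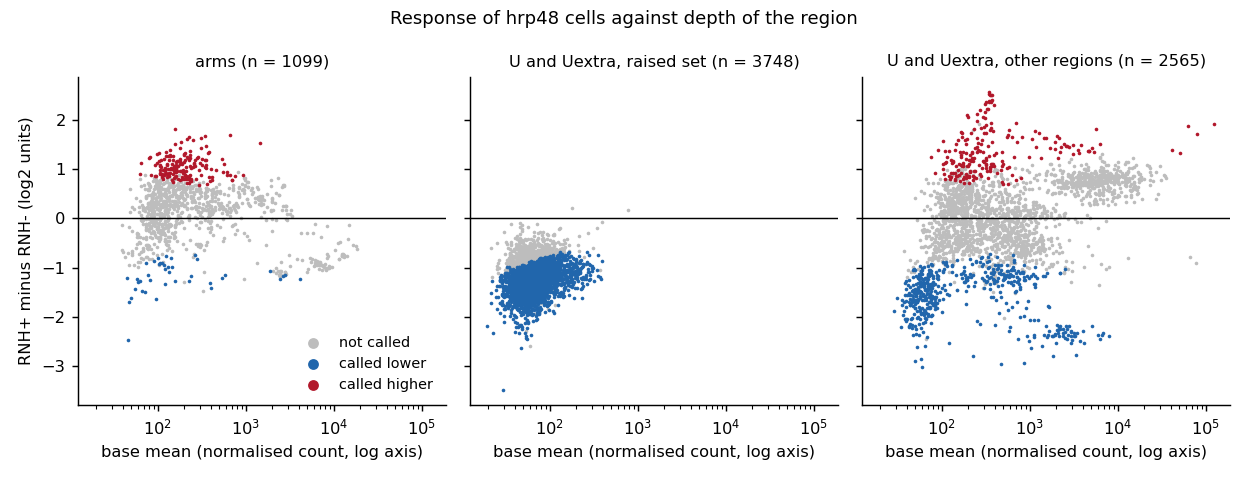
Response of each region in hrp48 cells (log2 units) against its base mean (normalised count, log axis), for the arms, the raised set and the other unplaced regions, coloured by call. The deep arm regions form a tight group of uncalled regions near -0.9, and the deep unplaced regions are dense near 0.8, uncalled, and include falls near -2.4.

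The deepest arm regions all had responses below 0 and, without centring, were almost never called. Among the 1099 arm regions 74 had a base mean of 4000 or more, and 1 of them was called lower and 0 higher. Their response ran from -1.24 to -0.12, with a median of -0.90, while the median of the arms was 0.26. Of the 74, 42 were between 5136 and 5256 bases long and were spread over all 5 large chromosomes. All 42 had responses between -1.05 and -0.72, and 0 were called. Their standard error in the authors' deposited table was 0.41 to 0.50 and their adjusted p 0.0961 to 0.265. Centring takes 0.24 off every fold change and so moves these regions further below 0. With it the arms had 147 falls, and how many of those are among the 74 was not counted here. Thresholds and lengths for these sets were chosen after the values were seen, and no test was made over them.

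These 42 regions could be divided into sets with similar values. A set of 23, recognised by a LacZ response below -0.9, had lengths from 5136 to 5256 bases, base means from 5386 to 8027, and responses from -0.98 to -0.81 in hrp48, -1.13 to -1.02 in LacZ and -2.15 to -1.89 in hrp36 cells. One of them, 2L from 2294089 to 2299238, went from 12.73 to 11.83 in hrp48 cells, and another, 2L from 3073086 to 3078234, from 12.78 to 11.86. Another 11 had responses from -1.05 to -0.95 in hrp48 and from -0.79 to -0.66 in LacZ cells, and the last 8, with base means from 12313 to 13201, had -0.79 to -0.72 and -0.73 to -0.67. Within each set the responses of hrp48 cells differed between places on different chromosomes by less than the standard error of any one of them. That also held for the 42 undivided, from -1.05 to -0.72. The standard error reflects the spread between libraries, which these regions share, so nothing is read from this comparison. A similar set of 4 arm regions of 7366 to 7500 bases had responses from -0.62 to -0.51. Whether these regions are copies of one sequence that share reads was not tested, since their sequence was not used here. In the arm counts and correlations given above, each of the 42 counts as 1 region.

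The deep unplaced regions covered a wide range of responses, described here in 4 bands. The bands were cut on the response itself, at borders chosen after the values were seen. The number of calls in a band therefore follows largely from the cut. Of 722 with a base mean of 1000 or more, 57 had a response of -1.7 or lower, and all 57 were called lower. They were short, with a median of 318 bases, lay on Uextra except for 1 on U, and went from a median of 11.47 to 9.14 in hrp48 cells, with median responses of -2.36 in hrp48, -2.26 in LacZ and -3.62 in hrp36 cells. Between -1.7 and 0.4 lay 187 regions, with responses from -1.40 to 0.40, of which 14 were called lower. Another 427 had a response between 0.4 and 1.1, with a median of 0.77, and 0 of them were called (medians of 0.47 for the standard error and 0.230 for the adjusted p in the authors' deposited table). This band had a median length of 345 bases and a median base mean of 6017, and its median response was 0.57 in LacZ and 0.70 in hrp36 cells. Above 1.1 there were 51 regions, 36 of them called higher. A run of 43 neighbouring regions on Uextra, from 28936814 to 29004382, had a median response of 0.75, within the band from 0.4 to 1.1. Every fold change of this run in the authors' deposited table was above 0 (median 0.67). Its median base mean was 5667, and it held 3 calls.

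Single regions show these patterns at their clearest, beginning with the falls on the large chromosomes. The 10 falls named by the rule on 2L, 2R, 3L, 3R and X had responses from -1.41 to -0.90, and the response was more negative in LacZ cells at 8 of them. The median response over all arm regions was likewise lower in LacZ than in hrp48 cells. On 2R from 4983164 to 4984701 the hrp48 mean went from 9.05 with RNH- to 7.74 with RNH+, a 2.49-fold fall, the LacZ mean from 9.44 to 7.51 and the hrp36 mean from 9.12 to 7.53. The authors' deposited table gave it a shrunken fold change of -1.26 (SE 0.30, adjusted p 0.000948). On 2R from 10509268 to 10511911 the hrp48 mean went from 9.14 to 7.74, the LacZ mean from 9.50 to 7.40 and the hrp36 mean from 9.08 to 7.66. In both regions LacZ cells had the highest RNH- and the lowest RNH+ level. A pair of neighbouring falls on 2L, at 20155853 to 20156131 and 20157472 to 20157734, had responses of -1.08 and -0.98 in hrp48 and of -1.41 and -1.43 in LacZ cells.

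The 2 other named falls on 3R and X were of a different kind. On 3R from 22041538 to 22042724 (base mean 2794) the response was -1.16 in hrp48, -0.68 in LacZ and -2.06 in hrp36 cells, and on X from 10424974 to 10426131 (base mean 2445) it was -1.23, -0.50 and -2.15. These were the places among the 10 where the response of hrp48 cells was the more negative of these 2. The authors' deposited table gave them an adjusted p of 0.0480 and 0.0497, just under the threshold. Over X, where only 2 of 203 regions were called lower, the remaining fall at 17039167 to 17040382 went from 7.70 to 6.42 in hrp48 and from 8.05 to 6.15 in LacZ cells.

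The named rises on the large chromosomes were short regions of moderate depth, 201 to 556 bases long with base means from 156.6 to 341.2. The rise at 2L from 15117837 to 15118063 went from 6.24 with RNH- to 8.07 with RNH+ in hrp48 cells, 3.54-fold, against 6.77 to 7.63 in LacZ and 6.70 to 7.51 in hrp36 cells. Its RNH- level was lowest and its RNH+ level highest in hrp48 cells, which the choice of the region by its hrp48 rise favours. Of the 10 named rises 5 lay in pericentromeric parts, although those parts held no larger share of rises (14.8% of 81 regions) than the arms did. The rise at 2R from 143853 to 144231 went from 6.38 to 8.33 in hrp48 cells. The authors' deposited table gave it a shrunken log2 fold change of 1.83, with an SE of 0.31 and an adjusted p of 2.82e-06. The one at 2R from 655142 to 655657 went from 6.90 to 8.68. In hrp36 cells these 2 went from 6.59 to 8.42 and from 7.06 to 8.63, close to the hrp48 levels, and in LacZ cells from 7.19 to 8.19 and from 7.64 to 8.35. On chromosome 4 the region from 346264 to 346717 rose from 9.04 to 9.90 (adjusted p 0.0240 in the authors' deposited table). With centring its adjusted p was 0.0828.

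On the Het scaffolds the leading falls and rises differed in how the other cell groups behaved. The leading falls, 3LHet from 2160538 to 2162332 and from 2176613 to 2178011, went from 8.21 to 6.88 and from 8.60 to 7.32 in hrp48 cells, whereas LacZ cells went from 6.28 to 7.09 and from 6.44 to 7.59. Both belong to a run of 10 neighbouring regions from 2160538 to 2185380, 9 of them called lower, with a median response of -1.43 in hrp48, 1.21 in LacZ and 0.61 in hrp36 cells. The border of the raised set applies at these places, so the contrast with LacZ cells is a description. The leading rise, XHet from 194838 to 195305, went from 6.61 to 8.87 in hrp48 cells, and its response was 2.26 there, 2.57 in LacZ and 1.79 in hrp36 cells.

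Runs of neighbouring regions with 1 direction were otherwise mostly of responses above 0 on placed chromosomes. With gaps of at most 10 kb and at least 5 regions, there were 9 such runs above 0, holding 70 regions and 12 calls, and the run on 3LHet was the 1 run below 0. On U and Uextra the reverse held, with 371 runs below 0 (3258 regions, 2524 of them in the raised set) and 17 above 0 (270 regions), but those names join scaffolds end to end. The longest run on placed chromosomes was one of 18 regions on 2L from 21452420 to 21514356. It had 0 calls and a median response of 0.18 in hrp48 cells, against -0.25 in LacZ and -0.84 in hrp36 cells. The 11 regions on 2R from 15618283 to 15653878 had 0 calls and 0.49, against 0.97 and -0.27. A pair of runs held 3 calls each, 2R from 7484644 to 7508085 and from 6439567 to 6462812. Since the arm median is above 0, such runs start from a scale on which responses above 0 are the more frequent.

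On unplaced scaffolds the named falls with the smallest adjusted p were among the largest. Uextra from 28696216 to 28696421 went from 8.01 to 5.21 in hrp48 cells, 6.96-fold, from 8.13 to 5.53 in LacZ and from 9.20 to 5.12 in hrp36 cells. Uextra from 28173809 to 28174172 went from 7.22 to 4.69, from 7.31 to 4.50 and from 8.25 to 4.30 in the same order. At both, the RNH- levels of hrp48 and LacZ cells were close, and the means of all 3 groups were lower with RNH+. On U the named falls were members of the raised set: from 7715780 to 7717815 hrp48 cells went from 9.01 to 7.40 while LacZ cells went from 6.78 to 7.95. At the named rises the RNH+ mean was higher in all groups, as on U from 9916533 to 9916741, with 6.04 to 8.36 in hrp48, 6.35 to 8.93 in LacZ and 6.63 to 8.78 in hrp36 cells.

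Mitochondrial DNA, the region of greatest length and second highest base mean, had a response nearer to 0 in hrp48 cells than in the others and was not called. From 52 to 15003 the hrp48 mean went from 17.99 to 17.10, a response of -0.89, against -1.56 in LacZ and -1.50 in hrp36 cells, while the RNH- means of LacZ and hrp36 cells were 17.95 and 17.94. The authors' deposited table gave it a shrunken log2 fold change of -0.82, with an SE of 0.35 and an adjusted p of 0.0501. The second mitochondrial region, from 16036 to 17183, had -0.96 in hrp48, -2.45 in LacZ and -1.77 in hrp36 cells and was not called either (adjusted p 0.104 in the authors' deposited table). Over all arm regions, too, the median response was higher in hrp48 cells, at 0.26 against -0.14 and -0.17. Between matched tables the mitochondrial fold changes differed by 0.57 from LacZ (1 region) and by a median of 0.38 from hrp36 cells (2 regions). Over all matched regions the median differences were 0.18 and 0.64. The longest region of U, from 5288406 to 5297552, ran parallel to the first mitochondrial region: the mitochondrial mean was higher by 1.27 to 1.36 in all 6 groups. Its response was -0.90, -1.54 and -1.43 in hrp48, LacZ and hrp36 cells, and whether the 2 share reads was not tested. With centring all 3 of these regions were called lower, with adjusted p of 0.00503, 0.0235 and 0.00945 by the Wald test, and with Benjamini-Hochberg adjustment of the listed p-values the first was (adjusted p 0.0370).

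The regions of highest base mean did not fall together. The highest, 2RHet from 3 to 394, went from 16.63 to 18.81 in hrp48, from 15.74 to 18.36 in LacZ and from 16.00 to 18.60 in hrp36 cells. With a standard error of 0.62 it had a shrunken fold change of 1.27 and was not called in the authors' deposited table (adjusted p 0.0848). Uextra from 9215415 to 9215780, the third, rose from 15.84 to 17.75 in hrp48, from 15.16 to 17.26 in LacZ and from 15.53 to 17.50 in hrp36 cells and was called (adjusted p 0.00860 in the authors' deposited table). The responses of the 2 regions lay between 1.91 and 2.62 in every cell group.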

How the data were processed

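DRIP-seq signal of S2 cells was analysed from the table of regions that the authors deposited for hrp48 cells, with the LacZ and hrp36 tables for matching. Per the submitters' processing notes, the build was dm3 and the tools were Bowtie2 2.2.2, MACS 1.4.2 and DESeq2. Not given in the sources used here are their order and roles, the DESeq2 version, the treatment of reads with several places and the pooling of peaks. The authors deposited group means as log2 values of normalised counts, a base mean (a signal per region), a shrunken log2 fold change of RNH+ over RNH- with its standard error, a Wald score and a p-value, raw and adjusted. The adjusted value came by a method not given in the sources used here and differed by up to 0.0426 from Benjamini-Hochberg values over the table. Columns ending in Un were taken as RNH-, those in Tr as RNH+.

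From these values the response (RNH+ minus RNH- group mean) was computed for each region and summarised by chromosome, by 4 classes of length and of base mean, and by part of the genome. Pericentromeric parts began at 22 Mb on 2L and X and at 23 Mb on 3L, and ended at 1.3 Mb on 2R and 0.4 Mb on 3R. These round numbers come from general knowledge. Calls are the authors' adjusted p under 0.05. Tables were matched by each other's best overlap of at least 1 base, and the difference of their fold changes was tested with a Wald statistic from both standard errors, with Benjamini-Hochberg adjustment. That test was checked on simulated data, where it found most changes of 2 log2 units and missed most changes of 1. Named regions are, for each of 2L, 2R, 3L, 3R, X, 4, the Het scaffolds, U and Uextra, the 2 called lower and the 2 called higher with the smallest adjusted p at a base mean of at least 98.2, all mitochondrial regions, the 3 longest and the 3 of highest base mean. Regions, sets and tests were chosen with earlier results of these data known. As alternatives, thresholds, a minimum base mean or fold change, the adjustment, centring, the borders, the overlap and removal of the raised set were varied. Single-library values and the 6 input libraries were not used here. The software was Matplotlib 3.10.9, SciPy 1.17.1, pandas 2.3.3, NumPy 2.4.6 and Python 3.11.15.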

Additional observations from a re-analysis of the deposited data

How the results depend on the processing

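No paired analysis was possible because the tables hold group means and no value of a single library, and for the same reason no library could be left out. Of the counts recomputed under alternatives, 20 moved by more than 1.5 times. The others include counts of 0 beside 0 and alternatives that could remove no call, so they are no measure of stability. At an adjusted p under 0.01 there were 1274 lower and 206 higher regions in all, 12 and 76 on the arms, and 1250 and 99 on U and Uextra. Under 0.1 the arms had 73 lower, and 1 matched region was lower than in hrp36 cells. With a fold change of at least 1 in size there were 253 higher in all, and 24 lower and 78 higher on the arms. Centring left 270 higher in all, 147 lower and 99 higher on the arms, 135 higher on U and Uextra, and 5 matched regions lower than in hrp36 cells. Outside the raised set centring gave 952 lower and 270 higher regions (77.9% lower), against 616 and 501 (55.1%) without it. Which scale is right was not tested. Without the raised set 559 lower regions remained in all and 496 on U and Uextra, and without regions past the same border on any chromosome, an alternative added after the data were seen, 548 and 496. Of the 39 named regions, 38 kept their side of the threshold under Benjamini-Hochberg adjustment of the listed p-values, and 35 did with centring, where the region of chromosome 4 lost its call and both mitochondrial regions and U from 5288406 gained one. The first mitochondrial region also gained one under the other adjustment. Precision rests on 2 libraries a group, and depth per library is unknown.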
